A study of Mus musculus with 5 samples.

Results

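Polycomb repressive complex 2 (PRC2) and the enzymes that set or remove cytosine methylation were followed as transcripts in B16F10 cells, a pigmented mouse melanoma line. The 10 genes were taken by symbol from the deposited table of 54699 genes: Ezh1, Ezh2, Eed, Suz12 and Jarid2 of PRC2, the DNA methyltransferases Dnmt3a and Dnmt3b, and the dioxygenases Tet1, Tet2 and Tet3. All 10 were found, each with 1 entry. RNA was sequenced from 5 cultures that had all received a lentivirus, 1 library per group. Cells with forced expression of mouse Myod1 (the Myod1 library) or mouse Pparg (the Pparg library) and cells with the empty expression vector (the expression control) were collected on day 8. Cells with a short hairpin RNA against Setdb1 (the Setdb1 knockdown library) and cells with the empty knockdown vector (the knockdown control) were collected on day 7. Both control genotypes are labelled wild type, and whether a culture was a clone or a mixed population is not stated. The 2 controls thus differ in vector and in day. Since each group is a single library, differences between groups could not be set against replicates and were not tested. The intervals below are 95% intervals that cover counting error only.

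PRC2 places methyl groups on lysine 27 of histone H3, a mark of silenced developmental genes. Its catalytic subunit is either Ezh2, which predominates in dividing cells, or the related Ezh1, which persists in many non-dividing cells. Eed reads the mark and stimulates the enzyme, Suz12 holds the core together, and Jarid2 is an accessory subunit that helps bring the complex to chromatin. Dnmt3a and Dnmt3b methylate cytosines that carried no methyl group, Dnmt1 copies the pattern after replication, and the Tet proteins oxidise methylcytosine on the way to its removal.

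Sequences before the transcription start are shown for the 4 core PRC2 genes, since Ezh2 and Suz12 moved together in the data below while Eed and Ezh1 did not move with them. They are RefSeq promoter sequences (assembly GRCm38.p6), 5′ to 3′ on the strand of the gene. Bases that GENCODE M21 annotates as untranslated region were left out, and the longest unbroken stretch of the rest is printed. A stretch can therefore stop short of the RefSeq start, as that of Ezh2 does. The Ezh2 stretch also lies inside the span of the gene given below. Capitals mark the word CCAAT, searched on both strands (ATTGG on the other), and the E2F-type words TTTGGCGC, TTTCCCGC, TTTGCCGC and TTTCGCGC, also searched on both strands. No match of either motif overlapped another, and the words were chosen after the expression values had been seen.
Ezh2, chr6:47595059-47595183, minus strand: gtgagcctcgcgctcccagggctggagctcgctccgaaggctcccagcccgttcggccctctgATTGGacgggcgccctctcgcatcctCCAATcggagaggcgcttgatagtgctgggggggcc
Suz12, chr11:79992856-79993105, plus strand: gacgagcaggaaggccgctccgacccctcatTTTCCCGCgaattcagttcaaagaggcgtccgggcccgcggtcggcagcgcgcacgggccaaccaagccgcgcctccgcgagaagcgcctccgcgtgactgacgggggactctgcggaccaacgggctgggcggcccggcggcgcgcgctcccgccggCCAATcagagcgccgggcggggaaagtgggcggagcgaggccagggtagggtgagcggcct
Eed, chr7:89980984-89981226, minus strand: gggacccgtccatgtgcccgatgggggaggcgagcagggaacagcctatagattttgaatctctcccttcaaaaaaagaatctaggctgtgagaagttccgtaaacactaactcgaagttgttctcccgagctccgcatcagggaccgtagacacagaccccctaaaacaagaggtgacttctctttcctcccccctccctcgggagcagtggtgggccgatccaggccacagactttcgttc
Ezh1, chr11:101226464-101226713, minus strand: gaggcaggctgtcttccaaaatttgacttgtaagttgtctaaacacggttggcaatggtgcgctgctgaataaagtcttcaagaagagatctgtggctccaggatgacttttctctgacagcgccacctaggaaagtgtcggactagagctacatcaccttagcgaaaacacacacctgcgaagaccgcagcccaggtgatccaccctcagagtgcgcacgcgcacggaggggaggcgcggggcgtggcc

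In the 300-base RefSeq windows, which include 50 bases after the start, an E2F-type word was found for 2 of the 10 genes. Suz12 had TTTCCCGC from 219 to 212 bases before the start, and Ezh2 had TTTGGCGC from base 4 to base 11 after it. Of all 32851 promoter windows of that length, 2.26% held such a word. That share is per window, over windows mostly poorer in CG than those of the 10 genes, so no excess is read from it. CCAAT was found 3 times in the Ezh2 window and 1 time each in those of Suz12 and Eed, and in none for Ezh1. It was also found in both windows of Jarid2 and in that of Tet3. The match nearest to the start of Ezh2 and the match of Eed lie outside the stretches printed above. CCAAT occurs in 37.4% of all windows. A match describes these letters and is not a measured binding site. The 13 windows of the 10 genes held between 17 and 57 CG dinucleotides, against a median of 7 over all windows. Those of Tet2 (57), 2 starts of Dnmt3a (46 and 47) and Suz12 (41) were the richest, and those of Eed and Tet1 (17 each) the poorest.

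The libraries held between 16214802 and 18300670 reads assigned to genes, recovered from the deposited FPKM (a read count divided by gene length and by a size of the library). The comparison was limited to the 12842 genes whose highest FPKM was 1 or more. Of the 10 genes, 9 passed this filter, Tet2 through the expression control alone, and Tet1 did not. The log2 ratio is that of FPKM + 1, which understates the change of low genes, and a gene is said to have risen or fallen when it differed at least 2-fold on this scale. Setdb1, the target of the hairpin, had an FPKM of 0.867 in the knockdown library and 9.82 in its control. Myod1 and Pparg had 7610 and 2514 reads in their own libraries and 0 reads elsewhere. All 10 melanocyte markers examined had reads in every library, with a summed FPKM between 2320 and 9147. The summed FPKM of 14 markers of blood, vessel, epithelial and fibroblast cells lay between 1.62 and 2.91, and 7 to 11 of them had 0 reads. The melanocyte sum was lowest in the Pparg (2320) and Myod1 (3332) libraries, against 7848 in their control. It was 9147 with Setdb1 knockdown and 8585 in the knockdown control. Of the 10 markers 5 fell with Myod1 and 8 with Pparg, and 2 fell and 1 rose with Setdb1 knockdown (medians -1.13, -1.33 and -0.21). The shares of all genes compared that fell were 7.55%, 2.3% and 10.3%, and 9.34% rose with Setdb1 knockdown. In bulk RNA, fewer cells that express a gene and less RNA per cell cannot be told apart.

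Ezh2 (ENSMUSG00000029687, chromosome 6, 47530139 to 47595341, minus strand), the catalytic subunit, fell in 2 of the 3 treated libraries. Its FPKM was 5.88 in the Myod1 library (interval 5.43 to 6.36), 11.8 in the Pparg library (11.2 to 12.4) and 17.9 in the expression control (17.2 to 18.8). It was 6.004 in the Setdb1 knockdown library (5.59 to 6.45) and 20.1 in the knockdown control (19.3 to 20.99). The Myod1 and Setdb1 knockdown libraries were the low ones and did not differ from each other beyond counting error, and the Pparg library lay between them and the controls. The Myod1 library held 32.8% of the control value (29.9% to 35.9%), a log2 ratio of -1.46, and 2.23% of the genes compared had a lower ratio. Setdb1 knockdown left 29.8% (27.4% to 32.4%), a log2 ratio of -1.59, with 3.47% of genes lower. In the Pparg library 65.8% remained (61.5% to 70.5%), which is under the 2-fold limit, with a log2 ratio of -0.56. The 2 controls differed by 0.16, the knockdown control being the higher.

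Suz12 (ENSMUSG00000017548, chromosome 11, 79993106 to 80034123, plus strand), the scaffold subunit, fell in the same 2 libraries. It had an FPKM of 4.90 in the Myod1 library (4.43 to 5.42), 11.2 in the Pparg library (10.6 to 11.9) and 16.1 in the expression control (15.2 to 16.95). It stood at 4.86 in the Setdb1 knockdown library (4.43 to 5.34) and at 15.1 in the knockdown control (14.3 to 15.9). As for Ezh2, the Pparg library lay between the controls and the other 2, and the intervals of the 2 low libraries overlapped. Those of the 2 controls overlapped too, which for Ezh2 they did not. What remained was 30.5% with Myod1 (27.2% to 34.2%), 32.3% with Setdb1 knockdown (28.9% to 36.0%) and 69.8% with Pparg (64.3% to 75.8%). The log2 ratios were -1.53, -1.45 and -0.48.

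Ezh2 and Suz12 were the members that passed the 2-fold limit. In the Myod1 comparison 2 of the 9 genes compared fell and 0 rose, where 7.55% of all genes compared fell, 14% rose and 21.6% did either. In the Setdb1 comparison 2 of 9 fell and 0 rose, against 10.3% and 9.34% of all genes, 19.7% in either direction. In the Pparg comparison 0 of 9 passed in either direction, against 6.52% of all genes (4.22% rose and 2.3% fell). Between the controls 0 of 9 passed, against 2.67% of all genes (1.23% higher and 1.44% lower). The falls of Ezh2 and Suz12 in the Myod1 and Setdb1 comparisons also passed 2-fold against the other control library, a criterion met downward by 4.42% and 7.56% of all genes and upward by 11.9% and 5.8%. For Pparg 0 of 9 met it, against 0.849% of all genes downward and 3.34% upward. The Myod1 and Pparg libraries share 1 control. The median log2 ratio of all genes compared was 0.02 with Myod1, -0.02 with Pparg and 0.00 with Setdb1 knockdown.

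**Figure D1:**
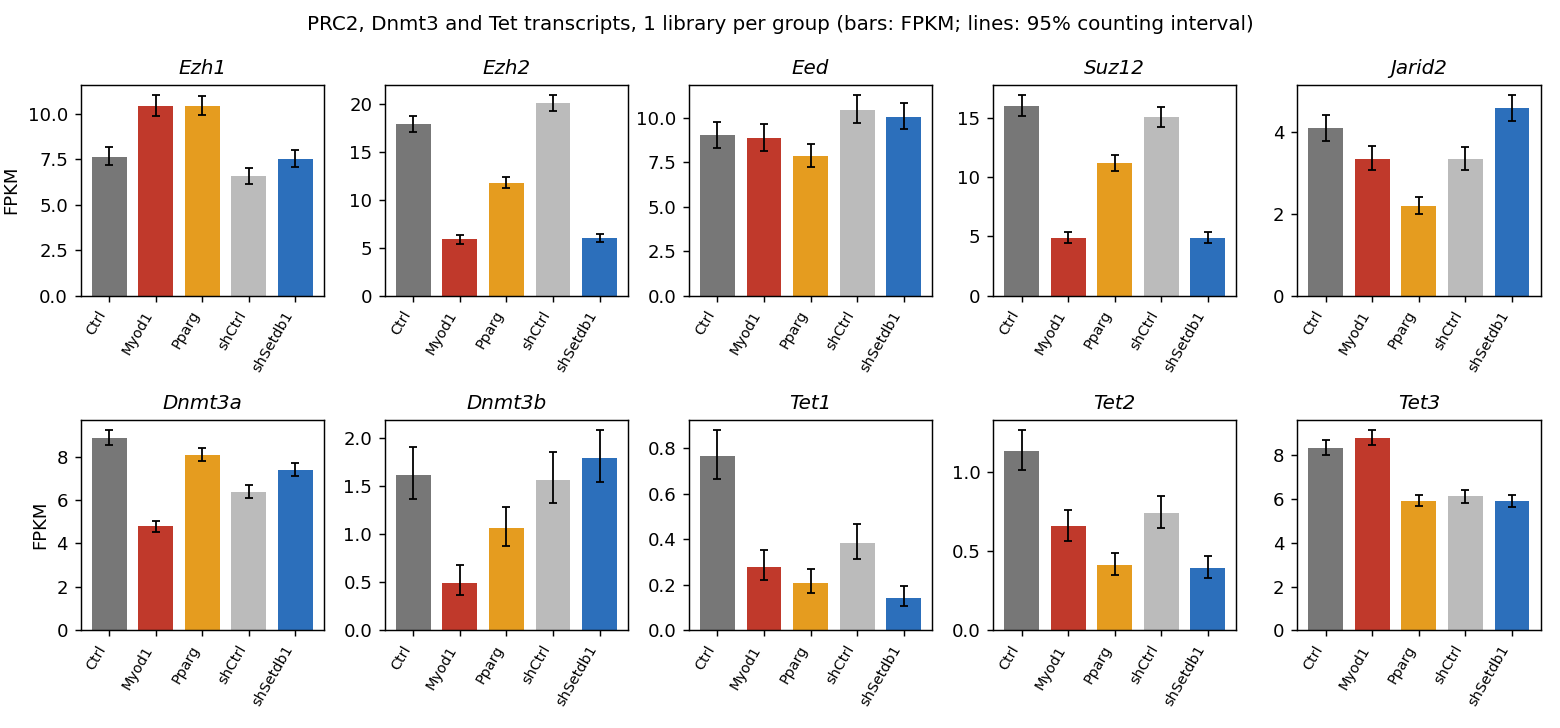
Bars give the FPKM of each of the 10 genes in the 5 libraries (Ctrl is the expression control, shCtrl the knockdown control, shSetdb1 the Setdb1 knockdown), and lines give 95% counting intervals. Ezh2 and Suz12 are lowest in the Myod1 and Setdb1 knockdown libraries, while the 5 bars of Eed lie between 7.84 and 10.5.

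Eed (ENSMUSG00000030619, chromosome 7, 89954654 to 89980983, minus strand), the subunit that binds the methylated lysine, differed little. Its FPKM was 8.86 in the Myod1 library (8.13 to 9.64), 7.84 in the Pparg library (7.22 to 8.50) and 9.003 in the expression control (8.29 to 9.78). It was 10.05 in the Setdb1 knockdown library (9.34 to 10.8) and 10.5 in the knockdown control (9.69 to 11.3). Neighbouring groups in this order overlapped in their intervals. The Myod1 library held 98.4% of its control value (87.2% to 111%) and the Setdb1 knockdown library 96.2% (86.4% to 107%). In the Pparg library the share was 87.0% (77.4% to 97.9%). The log2 ratios were -0.02, -0.05 and -0.18, and the sign in the Setdb1 comparison turned to 0.03 with scaling to the 75th percentile and to 0.14 against the expression control.

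Ezh1 (ENSMUSG00000006920, chromosome 11, 101191115 to 101226463, minus strand), the alternative catalytic subunit, was not lower in any treated library than in its control. It had an FPKM of 10.4 in both the Myod1 (9.85 to 11.02) and the Pparg library (9.92 to 10.98), against 7.64 in their control (7.16 to 8.14). In the Setdb1 knockdown library it had 7.52 (7.08 to 7.997), against 6.57 in the knockdown control (6.13 to 7.03). These are 1.36 times (1.25 to 1.49), 1.37 times (1.26 to 1.49) and 1.15 times (1.04 to 1.26) the control values, all under the 2-fold limit. Against the expression control the ratio with Setdb1 knockdown was 0.99 (0.90 to 1.08), so its direction there depended on the control.

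The balance between the 2 catalytic subunits therefore differed between libraries. Per length, Ezh2 was 2.35 times Ezh1 in the expression control (2.17 to 2.54) and 3.07 times in the knockdown control (2.83 to 3.33). It was 0.56 times Ezh1 in the Myod1 library (0.51 to 0.62) and 0.80 times in the Setdb1 knockdown library (0.73 to 0.88), so the order of the pair was the opposite in these 2 libraries. In the Pparg library the ratio was 1.13 (1.05 to 1.22). Such ratios are taken within a library and do not depend on how libraries were scaled to each other. The summed FPKM of the pair was 16.3 with Myod1, 22.3 with Pparg and 25.6 in their control, and 13.5 with Setdb1 knockdown against 26.7.

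Within the core, the ratio of Ezh2 to Suz12 lay between 1.05 in the Pparg library (0.97 to 1.14) and 1.34 in the knockdown control (1.25 to 1.43). The ratios of both to Eed had a wider range. Ezh2 was 1.99 and 1.93 times Eed in the expression and knockdown controls, 1.51 times in the Pparg library, 0.66 times with Myod1 and 0.60 times with Setdb1 knockdown. Suz12 was 1.78 and 1.44 times Eed in the same controls, 1.43 times with Pparg, 0.55 times with Myod1 and 0.48 times with Setdb1 knockdown. In both treated libraries with low Ezh2, Eed was thus the most abundant of Ezh2, Suz12 and Eed per length.

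**Figure D2:**
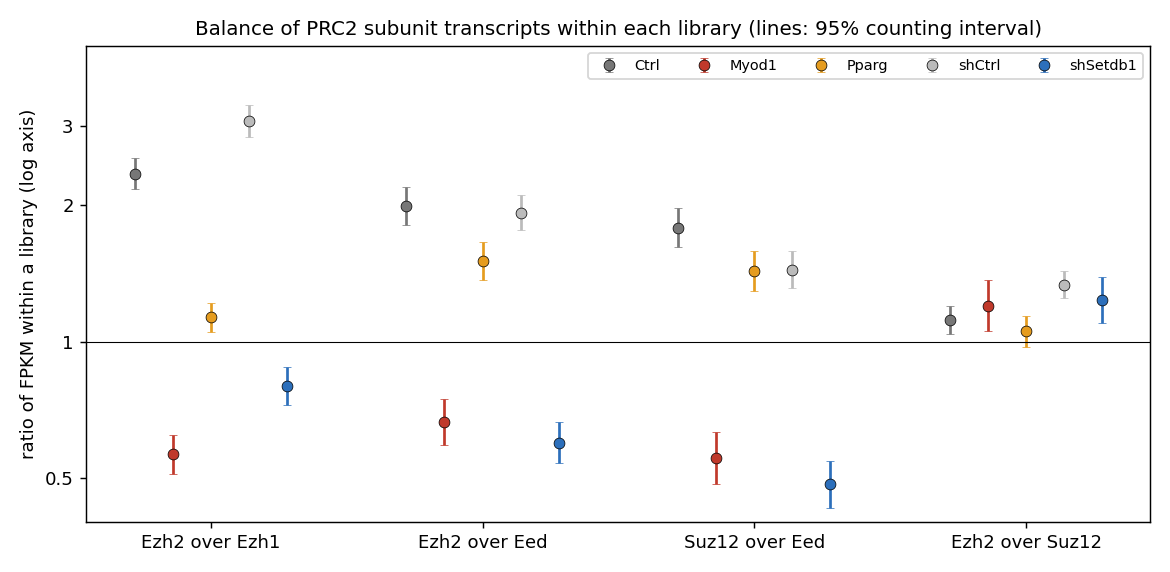
Points give ratios of FPKM between pairs of PRC2 genes within each library on a log axis, and lines give 95% counting intervals. Ezh2 over Ezh1 is above 2 in the controls and below 1 in the Myod1 (0.56) and Setdb1 knockdown (0.80) libraries, while Ezh2 over Suz12 stays between 1.05 and 1.34.

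Jarid2 (ENSMUSG00000038518, chromosome 13, 44729474 to 44921643, plus strand), the accessory subunit among the members, followed another order. Its FPKM was 3.34 in the Myod1 library (3.06 to 3.64), 2.19 in the Pparg library (1.98 to 2.41) and 4.08 in the expression control (3.78 to 4.41). It was 4.57 in the Setdb1 knockdown library (4.27 to 4.90) and 3.34 in the knockdown control (3.07 to 3.63). The Pparg library was the lowest, with 53.5% of its control (47.2% to 60.7%) and a log2 ratio of -0.67, and 6.14% of all genes compared had a lower ratio. Setdb1 knockdown gave 1.37 times its control (1.23 to 1.53) and 1.12 times the expression control (1.01 to 1.24). The Myod1 library held 81.8% of its control (72.7% to 92.0%) but 100.1% of the knockdown control (88.5% to 113%). The Pparg library held 65.5% of the knockdown control (57.5% to 74.6%). The controls themselves differed, since the knockdown control held 81.7% of the expression control.

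Dnmt3a (ENSMUSG00000020661, chromosome 12, 3806007 to 3914443, plus strand), a de novo methyltransferase, was lowest in the Myod1 library. It had an FPKM of 4.78 there (4.53 to 5.06), 8.08 in the Pparg library (7.78 to 8.40) and 8.88 in the expression control (8.53 to 9.24). It had 7.38 in the Setdb1 knockdown library (7.09 to 7.69) and 6.38 in the knockdown control (6.09 to 6.68). The Myod1 library held 53.9% of its control (50.3% to 57.7%), a log2 ratio of -0.77 that is under the 2-fold limit, and 75.01% of the knockdown control. With Setdb1 knockdown Dnmt3a was 1.16 times its own control (1.09 to 1.23) but 0.83 times the expression control. The Pparg ratio of -0.12 also changed sign against the other control (0.30) and with scaling to the 75th percentile (0.02).

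Dnmt3b (ENSMUSG00000027478, chromosome 2, 153649450 to 153687730, plus strand), the second de novo enzyme, was expressed at a lower level. Its FPKM was 0.498 in the Myod1 library (0.366 to 0.678, from 40 reads), 1.06 in the Pparg library (0.877 to 1.29) and 1.62 in the expression control (1.37 to 1.92, 135 reads). It was 1.80 in the Setdb1 knockdown library (1.55 to 2.09) and 1.57 in the knockdown control (1.33 to 1.86). The Myod1 library stood apart from the other 4, with 30.8% of its control (21.1% to 44.1%). On the scale of FPKM + 1 this was -0.81. With a pseudocount of 0.1 Dnmt3b passed the 2-fold limit together with Ezh2 and Suz12, so 3 of the 9 genes fell, where 13.2% of all genes did and 31.5% passed in either direction. With that pseudocount 2 of 9 fell in the Setdb1 comparison (16.3% of all genes, 31.4% in either direction) and 0 of 9 passed between the controls (4.15% lower, 7.41% in either direction). Dnmt3a exceeded Dnmt3b per length in every library, from 4.06 times in the knockdown control (3.41 to 4.88) to 9.60 times with Myod1 (7.01 to 13.5).

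Tet3 (ENSMUSG00000034832, chromosome 6, 83362373 to 83459084, minus strand) gave most of the Tet transcript in every library. Its FPKM was 8.79 with Myod1 (8.44 to 9.15), 5.91 with Pparg (5.65 to 6.18) and 8.33 in the expression control (7.995 to 8.68). It was 5.92 with Setdb1 knockdown (5.65 to 6.19) and 6.11 in the knockdown control (5.83 to 6.41). The knockdown library and its control did not differ beyond counting error, and the knockdown control itself held 73.4% of the expression control. The Pparg library held 71.0% of its control (66.7% to 75.5%), but 96.7% of the knockdown control (90.5% to 103%). The Myod1 log2 ratio of 0.07 became -0.28 when each library was divided by its FPKM sum. Of the summed Tet FPKM, Tet3 made up 81.5% and 84.5% in the expression and knockdown controls and between 90.4% and 91.7% in the treated libraries.

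Tet2 (ENSMUSG00000040943, chromosome 3, 133463679 to 133545139, minus strand) was lower than Tet3 per length by a factor between 7.36 (expression control) and 15.1 (Setdb1 knockdown). It had an FPKM of 0.656 with Myod1 (0.565 to 0.761), 0.414 with Pparg (0.350 to 0.491) and 1.13 in the expression control (1.01 to 1.26). It had 0.391 with Setdb1 knockdown (0.327 to 0.467) and 0.737 in the knockdown control (0.644 to 0.845). Each treated library was below its control, at 57.9% (47.9% to 69.97%), 36.6% (29.7% to 44.96%) and 53.0% (42.0% to 66.6%) for Myod1, Pparg and Setdb1 knockdown. The knockdown control held 65.1% of the expression control (54.4% to 77.9%). Against the other control the shares were 89.0% with Myod1 (72.3% to 109%), 56.2% with Pparg (44.9% to 70.2%) and 34.5% with Setdb1 knockdown (27.8% to 42.7%). With a pseudocount of 0.1 Tet2 was the 1 gene of 9 that fell in the Pparg comparison, where 4.66% of all genes fell and 13.5% passed in either direction. Since Tet2 entered the comparison only through its level in that control, the filter favours a fall and nothing is read from this count.

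Tet1 (ENSMUSG00000047146, chromosome 10, 62804570 to 62908996, minus strand) stayed below an FPKM of 1 in every library. Its FPKM was 0.280 with Myod1 (0.221 to 0.355, from 68 reads), 0.209 with Pparg (0.163 to 0.268, 62 reads) and 0.764 in the expression control (0.664 to 0.880, 193 reads). It was 0.143 with Setdb1 knockdown (0.106 to 0.194, 41 reads) and 0.383 in the knockdown control (0.315 to 0.466, 99 reads). The treated libraries held 36.6%, 27.4% and 37.4% of their controls. Against the knockdown control the Myod1 library held 73.04% (52.8% to 100.5%), within counting error, and the Pparg library 54.6% (39.1% to 75.8%). The Setdb1 knockdown library held 18.8% of the expression control (13.05% to 26.4%). The 2 controls differed as well, the knockdown control holding 50.1% of the expression control (38.9% to 64.2%). Tet1, Tet2, Tet3, Dnmt3a and Jarid2 have lengths in the table of 9.715 kb (Jarid2) to 16.9 kb (Tet2). The 1341 genes compared with a length of at least 9 kb had median log2 ratios of -0.34 with Myod1, -0.18 with Pparg and -0.39 with Setdb1 knockdown, and the part of gene length in the values of these 5 genes was not tested.

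**Figure D3:**
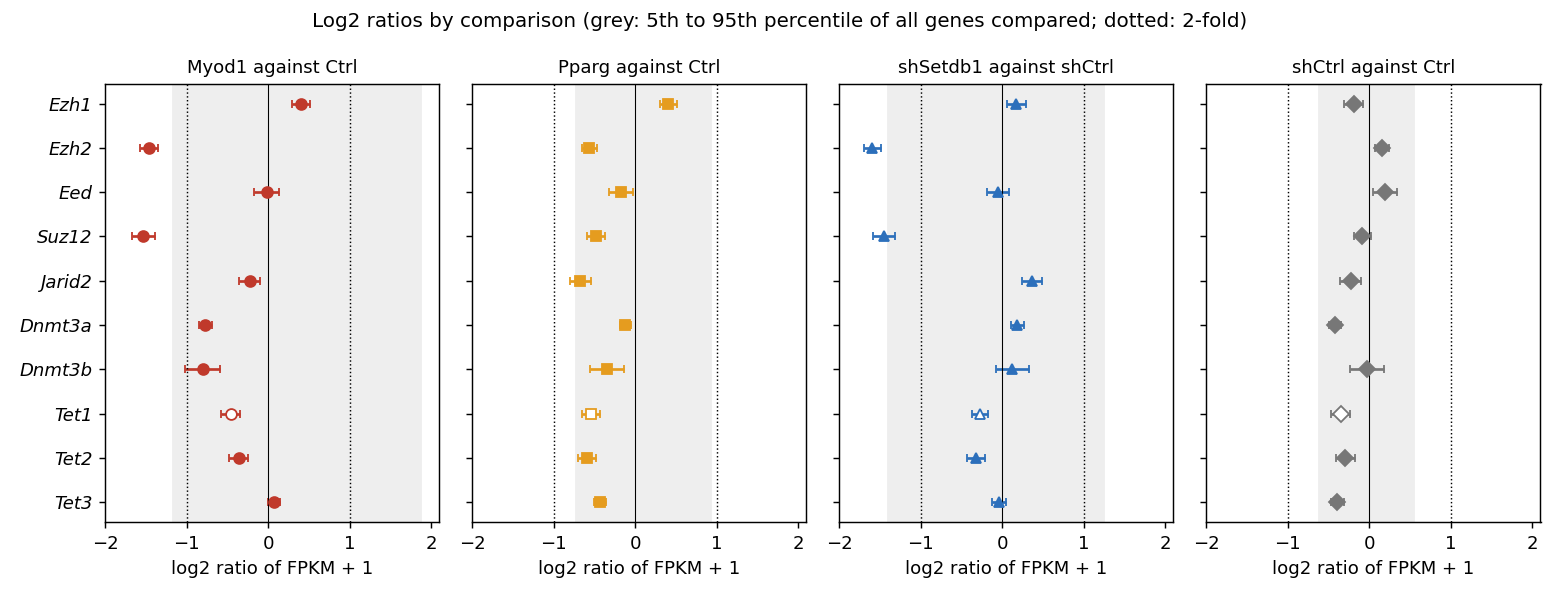
Points give the log2 ratio of FPKM + 1 for each gene in the 3 comparisons and between the controls, with 95% counting intervals, the grey band holding the 5th to 95th percentile of all genes compared (Tet1, open symbols, was not among them). Ezh2 and Suz12 lie beyond the band and the 2-fold line in the Myod1 (-1.46 and -1.53) and Setdb1 (-1.59 and -1.45) comparisons.

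Ordered by FPKM, Ezh2 and Suz12 came first and second in the expression control, the knockdown control and the Pparg library, although in the last the intervals of Ezh2 and Suz12, and of Suz12 and Ezh1, overlapped. Ezh1 was first in the Myod1 library, and Eed was first in the Setdb1 knockdown library. Dnmt3b, Tet2 and Tet1 took the last 3 places in every library, with Tet2 and Dnmt3b overlapping in the Myod1 library. In the expression control Eed, Dnmt3a, Tet3 and Ezh1 followed each other with overlapping intervals.

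Other genes lie over the spans of these 10 in 14 cases, several on the opposite strand (Dnmt3aos, Dnmt3bos and E230029C05Rik at Eed among them). How strand was treated in counting is not stated, so reads of such pairs cannot be told apart. None of the 14 had more than 9 reads in any library.

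By Euclidean distance between centred log2(FPKM + 1) profiles over the 5 libraries, Nup205 and Dbf4 were the second and the third nearest to Ezh2, at 0.17 and 0.18. Nup205, a nuclear pore protein, had an FPKM of 24.7 with Myod1, 42.0 with Pparg, 60.9 in the expression control, 23.2 with Setdb1 knockdown and 66.7 in the knockdown control. Dbf4 is the activator of the Cdc7 kinase in DNA replication. The nearest, mt-Tm at 0.15, is a mitochondrial tRNA with at most 2 reads per library. Nearest to Suz12 were Supt16 (0.12) and Nasp (0.16), both histone chaperones, and Hnrnpa3 (0.19), an RNA-binding protein. Suz12 itself ranked as gene 6 in distance from Ezh2 (0.24), whereas Eed was at 1.53 and Ezh1 at 1.87.

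Genes of S phase moved with Ezh2 and Suz12. The summed FPKM of 26 such genes was 541 with Myod1, 1012 with Pparg and 1221 in the expression control, and 323 with Setdb1 knockdown against 1328 in the knockdown control. With Myod1 17 of 26 fell and 0 rose (median -1.11), with Setdb1 knockdown 23 of 26 fell and 0 rose (median -1.90), and with Pparg 0 of 26 passed the limit (median -0.26). Of all genes compared 7.55%, 10.3% and 2.3% fell in these comparisons. Between the controls the median was 0.06. Rrm2 (-2.78), Cdc6 (-2.56) and Mcm4 (-2.47) had the lowest ratios with Setdb1 knockdown, and Pola1 (-1.86) and Mcm6 (-1.61) with Myod1. The part of the share of cycling cells in the Ezh2 and Suz12 values was not tested.

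Of 8 further PRC2 subunits compared, 1 rose and 0 fell with Myod1, 0 passed with Pparg, and 1 rose and 1 fell with Setdb1 knockdown. These counts stand beside 14% of all genes that rose and 7.55% that fell with Myod1, and 6.52% that passed with Pparg. With Setdb1 knockdown 9.34% of all genes rose and 10.3% fell. The median log2 ratios of the 8 subunits were -0.41, 0.08 and -0.74. Phf1, a Polycomb-like subunit that helps recruit PRC2, was the gene that rose, to an FPKM of 8.20 with Myod1 against 3.02 (log2 ratio 1.19) and to 9.65 with Setdb1 knockdown against 1.67 (1.99). Against the other control the Phf1 ratios were 1.78 with Myod1 and 1.40 with Setdb1 knockdown, so which was larger depended on the control. Its relative Phf19 fell with Setdb1 knockdown, from 8.40 to 3.59 (-1.03), but had a ratio of -0.59 against the expression control, under the limit. It had a log2 ratio of 0.86 with Pparg and of -0.82 with Myod1, and against the knockdown control the Myod1 ratio passed the limit (-1.26). Rbbp4 and Rbbp7, histone-binding subunits shared with other complexes, had ratios of -0.34 and -0.57 with Myod1 and of -0.83 and -0.73 with Setdb1 knockdown. These 2, and Tdg below, were chosen after their values were seen.

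PRC1, which ubiquitinates histone H2A at many of the same sites, had 22 of 23 genes compared. With Myod1 and with Pparg 0 of 22 passed the limit (medians -0.40 and -0.22), against 21.6% and 6.52% of all genes, and with Setdb1 knockdown 1 rose and 1 fell (median 0.00). Ring1, a catalytic subunit, rose from an FPKM of 6.01 to 17.2 (1.38). Rybp, a subunit of variant PRC1, fell from 7.82 to 2.62 (-1.28), but had a ratio of -0.70 against the expression control, under the limit. Of all genes 9.34% rose and 10.3% fell in this comparison. Against the knockdown control Ring1 (1.22) and Cbx7 (1.15) passed the limit with Myod1, and Bmi1 (-1.11) with Pparg. Among 5 of 6 erasers of Polycomb marks that were compared, 0 passed with Myod1 or Pparg, where 21.6% and 6.52% of all genes did. With Setdb1 knockdown Kdm6b, a demethylase of lysine 27, rose from 6.11 to 20.4 (1.59), and Bap1, an H2A deubiquitinase, fell from 25.2 to 11.5 (-1.07). Kdm6b had an FPKM of 13.4 in the expression control, a difference of -1.01 between the controls, and against that control its ratio with Setdb1 knockdown was 0.58, under the limit.

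Dnmt1, Uhrf1 and Hells, which act in the upkeep of DNA methylation, fell in the Myod1 and Setdb1 comparisons. Of 13 genes for maintenance and reading that were compared, 3 fell and 0 rose with Myod1, 0 passed with Pparg, and 4 fell and 1 rose with Setdb1 knockdown (medians -0.39, -0.02 and -0.40). Of all genes compared, 7.55% fell and 14% rose with Myod1, 6.52% passed with Pparg, and 10.3% fell and 9.34% rose with Setdb1 knockdown. Dnmt1 had an FPKM of 29.5 with Myod1, 57.2 with Pparg and 83.8 in the expression control, and 16.8 with Setdb1 knockdown against 66.0. Uhrf1, which guides Dnmt1 to newly copied DNA, had 46.1, 96.8 and 108 in the first 3 and 8.79 against 116 in the knockdown pair. Hells, a remodeller needed for methylation, fell with Myod1 (log2 ratio -1.84) and with Setdb1 knockdown (-2.39). Zbtb33, a reader of methylated DNA, fell with Setdb1 knockdown (-1.39), and Zbtb4, another reader, rose there (1.04), with 322 reads against 72, but had a ratio of 0.49 against the expression control, under the limit. Against the knockdown control Zbtb4 passed the limit with Myod1 (1.22) and Pparg (1.32), and Zbtb33 with Myod1 (-1.06).

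Of 12 partners of demethylation and base excision that were compared, 2 rose with Myod1, 2 rose with Pparg, and 3 rose and 1 fell with Setdb1 knockdown (medians 0.30, 0.02 and 0.49). Of all genes compared, 14%, 4.22% and 9.34% rose, and 10.3% fell with Setdb1 knockdown. Neil1, a DNA glycosylase, rose with Myod1 from an FPKM of 4.55 to 22.9 (2.11), and its ratio against the knockdown control was 2.82. Gadd45a, a stress-induced protein linked to demethylation, rose with Myod1 (2.06) and with Setdb1 knockdown (2.69), where Gadd45g (1.52) and Gadd45b (1.36) rose too and Ung, a uracil glycosylase, fell (-1.03). Against the expression control Gadd45g (0.92) and Ung (-0.79) did not pass the limit, while Gadd45a (1.89), Gadd45b (1.10) and Neil3 (-1.23) did. With Myod1 the Gadd45a ratio was 2.86 against the knockdown control. Gadd45b (1.08) and Gadd45g (1.01) were the genes that rose with Pparg, to which the knockdown control as reference added Gadd45a (1.33). Tdg, the glycosylase that removes the oxidised bases made by Tet proteins, had ratios of -0.43, -0.21 and 0.02 and passed in none of the 3.

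**Figure D4:**
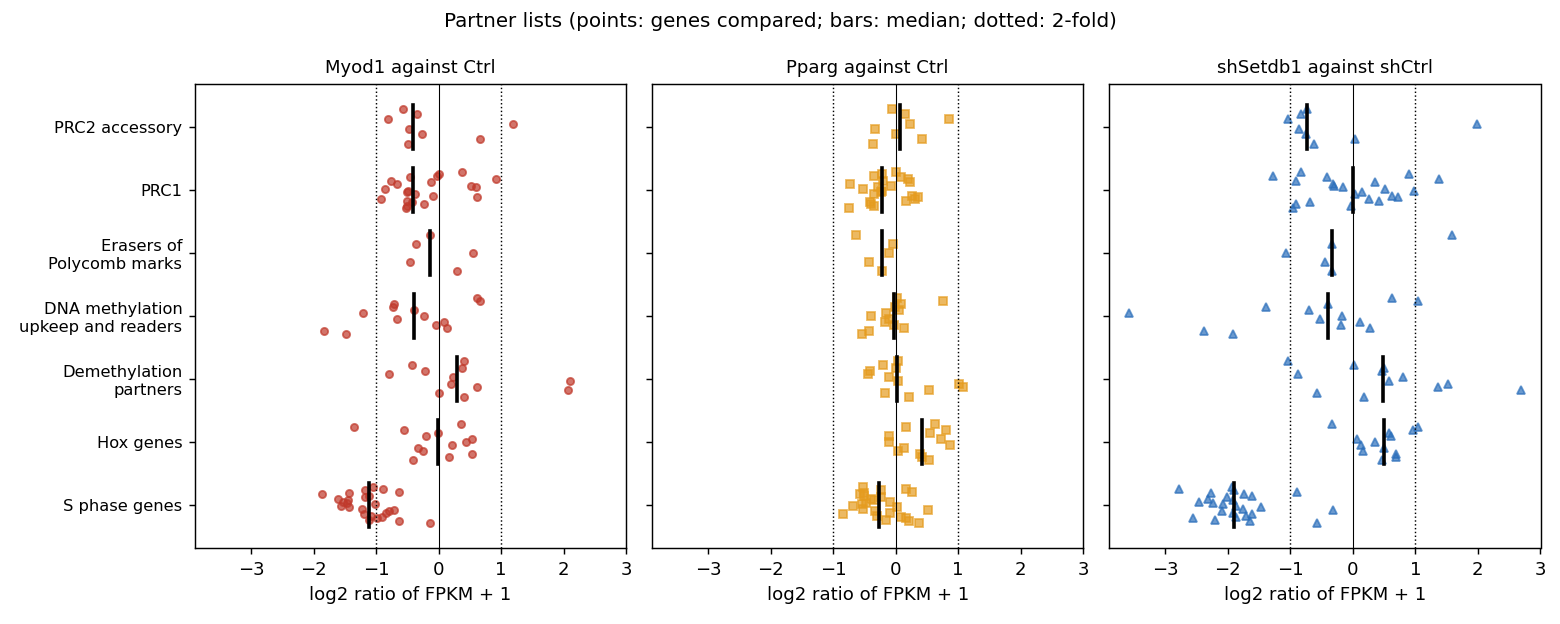
Points give log2 ratios of FPKM + 1 for the compared genes of 7 lists in the 3 comparisons, and black bars give medians. The S phase list lies to the left in the Myod1 (median -1.11) and Setdb1 knockdown (-1.90) panels, while the PRC1 list has medians of -0.40, -0.22 and 0.00.

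Genes known to be silenced by these marks in other cells were read in the same way. Hox genes, standard targets of PRC2, had 13 of 39 compared. With Myod1 1 fell and 0 rose (median -0.01), with Pparg 0 passed (0.41) and with Setdb1 knockdown 1 rose and 0 fell (0.50). Of all genes 7.55% fell with Myod1, 6.52% passed with Pparg and 9.34% rose with Setdb1 knockdown. Between the controls the median was 0.45, with 1 gene higher and 1 lower. Against the other control 5 of 13 rose with Setdb1 knockdown (median 0.76), where 1120 of the 12842 genes did, while the median with Pparg was -0.03 with 1 gene higher, and that with Myod1 was -0.25 with 0 genes past the limit. Of all 12842 genes, 709 rose with Pparg, and 1941 rose and 964 fell with Myod1, against that control. Their summed FPKM was 22.9 with Myod1, 37.0 with Pparg and 25.7 in the expression control, and 46.1 with Setdb1 knockdown against 28.9. The gene that fell and the gene that rose was in both cases Hoxb9, with an FPKM of 2.72 with Myod1, 8.51 in the expression control, 6.40 with Setdb1 knockdown and 2.58 in the knockdown control, so the controls differed by as much (-1.41). Against the other control its ratios were 0.05 with Myod1 and -0.36 with Setdb1 knockdown.

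Of 19 germline genes that promoter methylation keeps silent in somatic cells, 1 passed the filter. This was Fkbp6, with an FPKM between 73.4 (Myod1) and 118 (Setdb1 knockdown) and no 2-fold difference. The number with 0 reads was 13 with Myod1, 14 with Pparg and 15 in the expression control, and 11 with Setdb1 knockdown against 14. Over all genes, 18435 had reads with Myod1, 19163 with Pparg and 17916 in the expression control, and 18344 with Setdb1 knockdown against 17547. More genes were thus detected in each treated library than in its control, and nothing is read from the germline counts. Tex19.1 had 31 reads with Setdb1 knockdown and 0 in the knockdown control. Sohlh2 (36 reads) and Mov10l1 (39 reads) had 0 reads in the expression control and were detected with Myod1, at FPKM values of 0.968 and 0.593. These 3 were chosen after their values were seen.

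The scaling affected the Myod1 comparison most. Division by the FPKM sum moved its median over all genes from 0.02 to -0.26, and the 1798 genes that rose and 970 that fell became 1237 and 1904. In the Pparg comparison scaling to the 75th percentile turned 542 and 295 into 736 and 231. In the Setdb1 comparison the same scaling turned 1200 genes that rose and 1326 that fell into 1426 and 1160, so that rises became the more frequent. Ezh2 and Suz12 fell at least 2-fold in the Myod1 and Setdb1 comparisons under each scaling tried, and Ezh1 was above its own control in all 3 comparisons under each, by as little as 0.05 with Myod1. Dnmt3a also passed the limit with Myod1 after division by the FPKM sum (-1.09).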

How the data were processed

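Gene expression was measured by RNA sequencing (NEBNext Ultra RNA kit on total RNA, per the labels' protocols). The authors deposited 1 table of FPKM values per gene and library. CASAVA, HISAT2 and featureCounts 1.5.0-p3 and the build GRCm38 are named in the submitters' processing notes, without roles. Strand and shared-read settings are not given in the sources used here. FPKM times gene length gave whole multiples of 1 step (tolerance 0.01) for 100% of values above 0 in each library, which gave back reads and the divisor, 0.859 to 1.10 times the reads.

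Of 54409 identifiers shared with GENCODE M21, 98.3% had the same position. Log2 ratios used a pseudocount of 1. Intervals are Wilson intervals for levels and exact binomial intervals for ratios. Calculations used Python 3.11.15, scipy 1.17.1 and pandas 2.3.3, and were tested on simulated data. The 10 lists hold 173 entries, of which Ezhip had no entry in the table. The members and lists were chosen with earlier results of these data known. Genes named are the 10, the 3 targets, list genes past the limit (at most 5 a list and comparison) and the 3 nearest profiles of members spanning a log2 range of at least 1. Rbbp4, Rbbp7, Tdg, Fkbp6, Tex19.1, Sohlh2, Mov10l1 and the genes past the limit only against the other control were named after their values were seen. Alternatives were a pseudocount of 0.1, no filter, 2 scalings, the other control and both controls.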

Additional observations from a re-analysis of the deposited data

How the results depend on the processing

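No paired analysis was possible because each group has 1 library. The counts of members past 2-fold in the Myod1 and Setdb1 comparisons lay between 2 and 3 under every alternative tried, and Ezh2 and Suz12 kept their direction throughout. With a pseudocount of 0.1 the number of all genes past 2-fold was 1729 in the Pparg comparison, 4027 in the Setdb1 comparison and 952 between the controls, against 837, 2526 and 343 with a pseudocount of 1. The members in the Pparg comparison went from 0 to 1 with it, the gene being Tet2, which passed the filter only through its level in the control of that comparison, so this count shows nothing about the members. Requiring the difference against both controls left 538 genes in the Pparg comparison. Leaving out the filter changed no count, since a gene under an FPKM of 1 in all libraries cannot reach 2-fold with a pseudocount of 1. The other control turned the sign of 1, 1 and 3 of the 10 members in the Myod1, Pparg and Setdb1 comparisons, none of them past 2-fold. Depth limits Dnmt3b and Tet1, which rest on 40 to 193 reads.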
